A study of Oryza sativa with 3 samples.

Results

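In rice leaf chromatin, 7289 pairs of neighbouring nucleosome calls had linkers of 0 to 13 bp and met a read limit at both calls. The linker is the DNA between 2 nucleosome cores, and its length was the distance between the centres of adjacent calls less the length of a core, so that a linker of 13 bp stands for centres 160 bp apart. Calls pool many cells, so the 2 calls of a pair need not lie on the same molecule, and the linker is a distance between calls. The centre of a call was taken 60 bp after its start. The 5' end of each single-end read was moved 73 bp inward to give a read centre, and the occupancy of a call was the number of read centres no more than 20 bp away from it. Both calls of a short-linker pair had an occupancy of 8 or more. These were 7289 of 118133 adjacent pairs with such linkers (6.17%), where 189801 of all 3456843 adjacent pairs (5.49%) reached the same occupancy.

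Nuclei were digested with micrococcal nuclease (MNase), an enzyme that cuts linker DNA and spares the DNA wrapped on the core, and DNA of single nucleosomes was cut from a gel. All material was leaf tissue of seedlings grown for 2 weeks in soil, of Nipponbare, the reference cultivar of rice, and no treatment other than MNase was named. Replicate 1 gave 26516807 mapped single-end reads (71.3 per kb), pooled over 2 technical replicates, and replicate 2 gave 3456855 nucleosome calls, made by the authors from read pairs. With 1 biological replicate of each form and no second condition, no test over samples could be made, and errors are SDs over the 12 chromosomes, which share 1 library.

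Nucleosomes follow each other along the DNA, separated by linkers of varying length. Linker histone H1 binds where DNA enters and leaves the core, and remodelling enzymes of the ISWI and CHD families, known best from yeast and flies, space nucleosomes evenly. Cores with almost no linker leave little free DNA between them for nuclease or for linker histone.

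The pairs were selected on linker length and on read counts at both calls, so these distributions are given as a description. Pairs became more frequent with linker length. There were 374 pairs with a linker of 0 bp, 411 with 1 bp, 414 with 2 bp, 454 with 3 bp, 456 with 4 bp, 436 with 5 bp and 531 with 6 bp. There were 528 with 7 bp, 520 with 8 bp, 569 with 9 bp, 630 with 10 bp, 655 with 11 bp, 651 with 12 bp and 660 with 13 bp. Linkers of 0 to 6 bp thus held 3076 pairs (42.2%) and those of 7 to 13 bp 4213 (57.8%), with a median of 8 bp. One base pair beyond each limit, 365 occupied pairs were closer and 669 had a linker of 14 bp, so neither limit marked a step. Occupied pairs had a local minimum of 287 at 135 bp between centres, where cores would overlap, and rose to a local maximum of 751 at 164 bp. The short linkers lay on the slope between both.

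**Figure D1:**
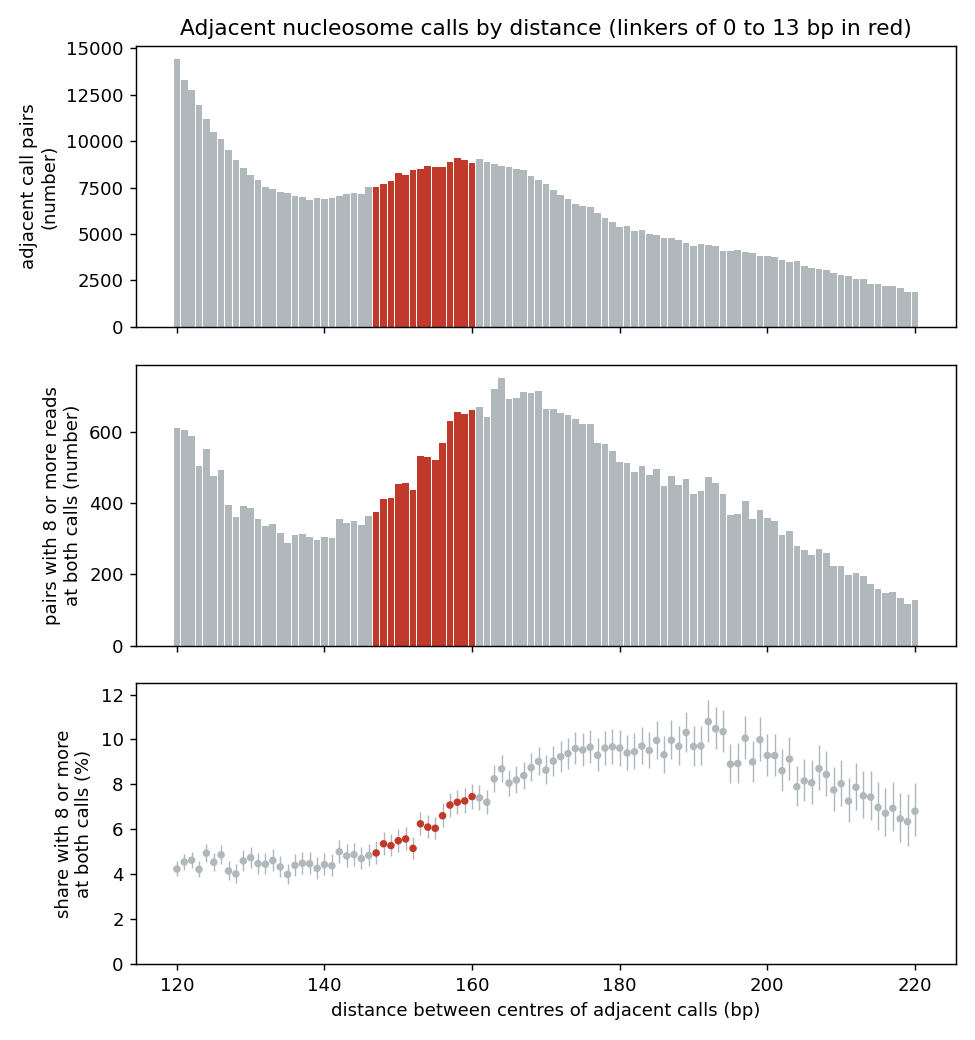
Number of adjacent call pairs (top), number with an occupancy of 8 or more at both calls (middle) and the share of such pairs (bottom, points with 95% Clopper-Pearson intervals) at each distance between centres from 120 to 220 bp. Linkers of 0 to 13 bp are red, and the share rises across them from 4.95% to 7.46%, short of the 10.8% reached at 192 bp.

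The share of adjacent pairs that were occupied rose as well. It was 4.95% of 7555 pairs with a linker of 0 bp (95% Clopper-Pearson interval 4.47% to 5.46%, counting error only) and 7.46% of 8849 pairs with 13 bp (6.92% to 8.03%). The rise was not even. From 5 to 6 bp the share went from 5.15% (4.69% to 5.65%) to 6.25% (5.74% to 6.78%), while the SDs over chromosomes at these steps were 1.15 and 0.967 percentage points. Centres closer than a core length, from 120 bp upward, gave 4.52%. Longer linkers gave 8.56% at 14 to 28 bp and 9.65% at 29 to 43 bp, and the share at 0 to 13 bp was below both on 12 of 12 chromosomes.

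Most short-linker pairs lay close to the occupancy limit. Their calls had a median of 10 read centres and a highest value of 78, beside a median of 3 for all calls. The weaker call had 8 read centres in 2649 pairs, 9 in 1676, 10 to 14 in 2668, 15 to 19 in 249 and 20 or more in 47. Just outside the limit, 4049 pairs had 7 at the weaker call. Reads favoured neither side, as the left call had more in 3173 pairs and the right in 3267, and in 850 pairs (11.7%) the larger value was at least 2 times the smaller. Reads repeated at the same position and strand were 25.4% of the reads at these calls, 27.0% at occupied pairs with linkers of 14 to 28 bp, 27.4% at 29 to 43 bp and 14.5% of all reads. With repeated reads counted once, 3209 pairs (44.0%) kept 8 or more at both calls. Under that count the shares were 2.72% for short linkers, 4.1% and 4.88% for the longer classes, and 2.47% over all distances.

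Because calls and reads came from separate biological replicates, the linker length could be read from the single-end library too. Read centres were summed around all 118133 pairs with linkers of 0 to 13 bp, whatever their occupancy, and the highest point towards the other call was located. It stood at a linker of 8 bp (SD 0.651, 7 to 9 bp on single chromosomes), beside a median of 7 bp between the calls. Pairs with linkers of 0 to 6 bp, with a median of 3 bp, gave 4 bp (SD 1.61), and those of 7 to 13 bp, with a median of 10 bp, gave 11 bp (SD 1.11). The single-end library thus followed the calls within the range. Pairs with linkers of 14 to 28 bp gave 22 bp (SD 0.793) and those of 29 to 43 bp gave 36 bp (SD 0.965).

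The linker inside the pair was set by selection, and no such limit applied to the outer sides. Outward from occupied short-linker pairs, read centres had their first maximum at 173 bp (SD 4.79, from 170 to 184 bp on single chromosomes), a linker of 26 bp. Further maxima stood at 374, 566 and 778 bp. The first outside linker was 28 bp (SD 5.55) for occupied pairs with linkers of 14 to 28 bp and 30 bp (SD 3.56) for those of 29 to 43 bp, so the classes overlapped within their spread. Around all pairs with linkers of 0 to 13 bp of any occupancy, it was 23 bp (SD 2.29, 19 to 26 bp on single chromosomes). The same measure was 27 bp (SD 3.04) for all pairs with linkers of 14 to 28 bp and 26 bp (SD 1.98) for those of 29 to 43 bp, where the selected linker inside was the longer one. Over the 3 classes, outside linkers lay within 23 to 27 bp for pairs of any occupancy and 26 to 30 bp for occupied pairs.

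The next occupied nucleosome was also placed from calls, by a median rather than by a maximum, so the 2 measures are unlike. A call with 8 or more read centres lay at 120 to 400 bp on 58.1% ± 1.25 of the sides of short-linker pairs (SD), beside 57.4% and 57.9% in the classes of longer linkers. Its median distance was 203 bp (SD 2.91, quartiles 170 and 263 bp), with 201 bp on the left and 205 bp on the right. In the longer classes the medians were 197 bp (SD 2.15) and 193 bp (SD 3.19), and the difference from the latter was larger than the spread over chromosomes. Of the 8467 sides of short-linker pairs with such a call, 8.28% again had a linker of 0 to 13 bp, 16.4% had 14 to 28 bp and 11.4% had 29 to 43 bp. For pairs with linkers of 29 to 43 bp these shares were 7.05%, 18.2% and 16.3%. The linker inside and the linker outside had a Spearman's rho of -0.02 over the 8467 sides, a description in which both sides of a pair share the inner linker. The rule limited the inner linker to 0 to 13 bp, so this value cannot show whether the linkers are related.

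Occupied calls stood outside on both sides of 2585 short-linker pairs (35.5%), on 1 side of 3297 and on neither side of 1407 (19.3%). In the 2585 with both, the 4 nucleosomes spanned a median of 579 bp from first to last centre. Both outside linkers were longer than the inner one in 2060 of them (79.7%), a share that the rule largely sets, since the inner distance was limited to 160 bp and the outer ones could reach 400 bp. Left and right distances had a Spearman's rho of 0.03.

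Directly beside the pair, short-linker pairs differed from pairs with longer linkers by further positions that overlapped the outer nucleosomes. Cores cannot share DNA on the same molecule, and a library from many cells records such positions together. A call with its centre at most 120 bp outside stood on 66.4% ± 1.62 of sides, beside 54.8% ± 1.51 for linkers of 14 to 28 bp and 53.2% ± 1.38 for 29 to 43 bp (SD). Pairs with linkers of 0 to 13 bp below the occupancy limit had such calls on 66.7% ± 0.721 of sides. The share beside calls in general was not computed, so these values compare the classes only. Whether the share at short linkers is high among all calls was not tested. The overlapping calls of short-linker pairs were centred at a median of 67 bp outside (quartiles 57 and 90 bp). They reached an occupancy of 8 or more on 23.8% ± 1.13 of all sides, beside 15.8% ± 0.879 and 12.6% in the longer classes and 9.95% ± 0.589 at short linkers below the limit.

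Single-end reads had a shoulder at similar distances. At 40 to 70 bp outside, beyond the window that defined occupancy, read centres of short-linker pairs stood at 153.9% ± 3.16 of their level at 800 to 1200 bp. The level was 130% ± 3.98 for linkers of 14 to 28 bp and 116% ± 4.09 for 29 to 43 bp (SD). With repeated reads counted once, an alternative added after seeing the data, the levels were 149% ± 2.64, 128% ± 3.55 and 116% ± 3.39, in the same order. Short-linker pairs below the occupancy limit, with as large a share of overlapping calls, stood at 106% ± 1.19. Those pairs were chosen for few reads, and their overlapping calls were less often occupied. The part of overlapping calls in the shoulder was not tested. The wave of read centres farther out was shallower at short linkers. Its first minimum was at 87.9% ± 4.37 of the distant level, beside 80.9% ± 4.82 and 77.2% ± 4.60. Its first maximum was at 157.9% ± 6.11, beside 169% in the middle class and 179% ± 5.97 in the longest. Reads at 200 to 1000 bp were denser around short-linker pairs (101.5 per kb ± 2.30) than around the longer classes (95.6 ± 2.23 and 95.8 ± 1.22), and the part of density in the shoulder was not tested.

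**Figure D2:**
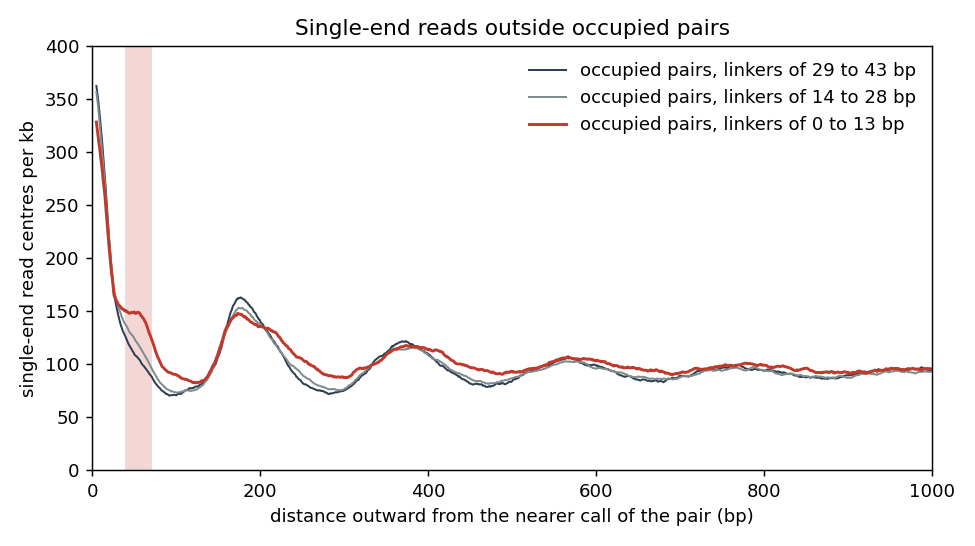
Single-end read centres per kb (mean over both sides, smoothed over 11 bp) against the distance in bp outward from the nearer call, for occupied pairs with linkers of 0 to 13 bp (red), 14 to 28 bp (grey) and 29 to 43 bp (dark). In the shaded band at 40 to 70 bp the red curve carries a shoulder, on average 144 read centres per kb against 118 and 106, while the first outside maxima lie close together.

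Some short-linker pairs had no call centred within 120 bp outside. No call overlapped from either side in 995 (13.7%), and calls overlapped from both sides in 46.4%. Pairs with none were 24.0% of occupied pairs with linkers of 14 to 28 bp and 25.7% at 29 to 43 bp. These subsets were formed after the values above were seen. In the 995 pairs the nearest call outside lay at a median of 173 bp, and the single-end maximum stood at a linker of 8 bp inside (SD 2.19) and 26 bp outside (SD 11.9). The inside value is set by the selection of these pairs and is a description. Their first minimum was at 51.5% ± 12.8 of the distant level, beside 93.3% ± 3.47 where calls overlapped from both sides. The level at 40 to 70 bp was 107% ± 13.6 in the former and 167% ± 5.74 in the latter. Without calls within 120 bp outside it was 86.5% ± 6.42 for linkers of 14 to 28 bp and 80.7% ± 7.24 for 29 to 43 bp. The longer classes overlapped within their spread, and the short-linker value lay within its SD of the distant level. Reads stood at 80.5 per kb around the former and 109.6 per kb around the latter, and the part of this in the difference was not tested.

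Midway between the calls, short-linker pairs had 88.0 read centres per kb, close to the 93.6 per kb at 800 to 1200 bp outside. The level at the nucleosome centres, 342 per kb, was high by selection, and shares of it are a description. The level midway between the calls was 25.7% ± 1.15 of that at the nucleosome centres, beside 18.6% ± 1.19 for linkers of 14 to 28 bp and 16.8% ± 0.889 for 29 to 43 bp (SD). The midpoint of a shorter pair is also closer to both centres. At 76 bp on the outer side of the same nucleosomes the level was 32.4% ± 0.931, above the linker on 12 of 12 chromosomes. The longer classes shared this, with outer levels of 23.9% ± 1.30 and 21.9% ± 0.708, each above the linker on 12 of 12 chromosomes. In the 995 pairs without calls centred within 120 bp outside, the levels were 14.3% ± 3.32 in the linker and 14.1% ± 2.03 outside, which overlapped.

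Each single-end read marks 1 edge of a nucleosome, so ends at the linker could be counted apart from ends at the outer sides. Reverse reads of the left call and forward reads of the right call end at the linker, and the occupancy rule did not use this division. Short-linker pairs had 87183 ends on the linker side and 85529 on the outer side. The linker side held 50.5% (Clopper-Pearson interval 50.2% to 50.7%, SD 0.470), and more than 50% on 11 of 12 chromosomes. The share was 50.8% (SD 0.316) at linkers of 14 to 28 bp and 50.5% (SD 0.378) at 29 to 43 bp, differences smaller than the spread over chromosomes. For the shortest linkers, 0 to 6 bp, it was 50.2% (SD 0.747). The median end of short-linker pairs lay 72 bp from the centre on the linker side and 73 bp on the outer side. Only DNA of single nucleosomes was sequenced, so pairs whose linker stayed uncut gave no ends, and how many these were cannot be told.

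**Figure D3:**
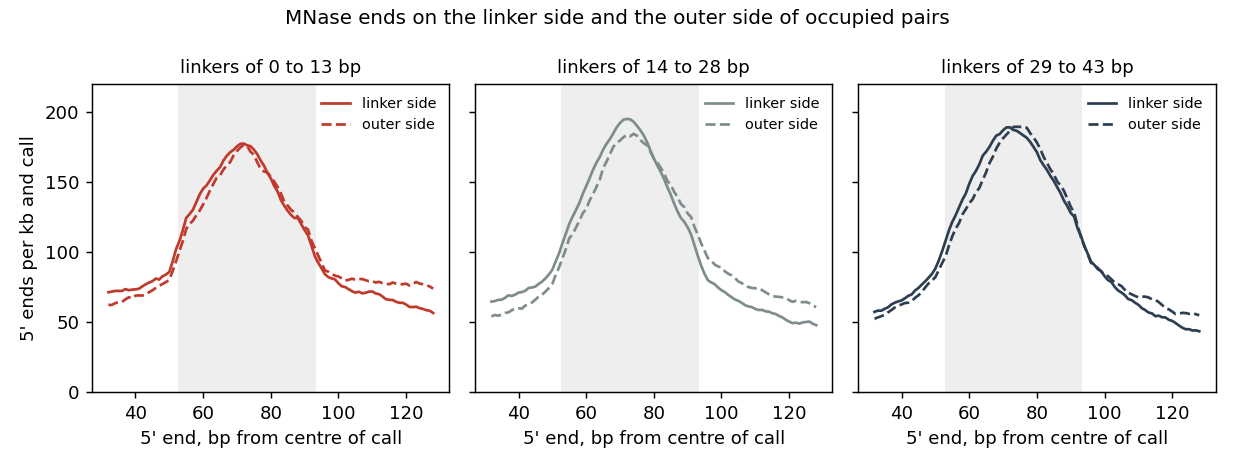
5' ends of single-end reads per kb and call (smoothed over 5 bp) against their distance in bp from the centre of the call, on the linker side (solid) and the outer side (dashed), for occupied pairs in 3 classes of linker length. The grey band from 53 to 93 bp is the window of the occupancy rule, which shapes the curves there, and the maximum on the linker side is at 72 bp in each class.

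The score that the caller nucleR gave each call came from the paired-end library. Calls of short-linker pairs had a median score of 0.683, beside 0.705 and 0.709 for occupied pairs with linkers of 14 to 28 bp and 29 to 43 bp, and 0.510 for short linkers below the occupancy limit. Scores differed between chromosomes, with medians at short-linker pairs from 0.530 on chromosome 9 to 0.719 on chromosome 5. Ranked among all calls of the same chromosome, short-linker pairs had a median rank of 88.0% (SD 0.739), below the 91.4% (SD 0.590) and 92.2% (SD 0.549) of the longer classes by more than the spread. Within the range the rank was 86.2% (SD 1.06) at linkers of 0 to 6 bp and 89.3% (SD 0.655) at 7 to 13 bp. Just inside the occupancy limit, with 8 at the weaker call, the median score was 0.656, and just outside, with 7, it was 0.634.

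Short-linker pairs occurred on all chromosomes, at 19.4 ± 1.74 per Mb (SD over 12). Chromosome 3 had the most (22.9 per Mb, 834 pairs) and chromosome 12 the fewest (17.4 per Mb, 479 pairs). The same chromosomes had the most and the fewest reads, 77.4 and 67.6 per kb, and reads enter the occupancy rule. As a share of all occupied pairs with linkers of 0 to 43 bp, short-linker pairs varied little, from 27.7% on chromosome 10 to 30.04% on chromosome 4.

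Each chromosome was then divided into 10 equal parts. Short-linker pairs stood at 20.4 per Mb in part 1, fell to 15.8, 15.4 and 15.2 per Mb in parts 3, 4 and 5 and reached 26.4 per Mb in part 10. Reads varied less, from 63.9 per kb in part 4 to 78.3 per kb in part 10. The rule counts reads at both calls, so pairs need not vary in proportion to reads, and the part of read density was not tested. The share among occupied pairs with linkers of 0 to 43 bp stayed between 27.3% and 29.9%, so the density of other occupied pairs varied along with that of short-linker pairs. In 366 windows of 1 Mb the median was 19 pairs (quartiles 15 and 24), and each window held at least 4. Across windows, which share a library, the number of short-linker pairs had a Spearman's rho of 0.70 with the number of reads (Pearson's r of 0.70), which enter the rule, and of 0.65 with the number of occupied pairs with linkers of 14 to 43 bp, and their share had a rho of 0.05 with the number of reads.

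**Figure D4:**
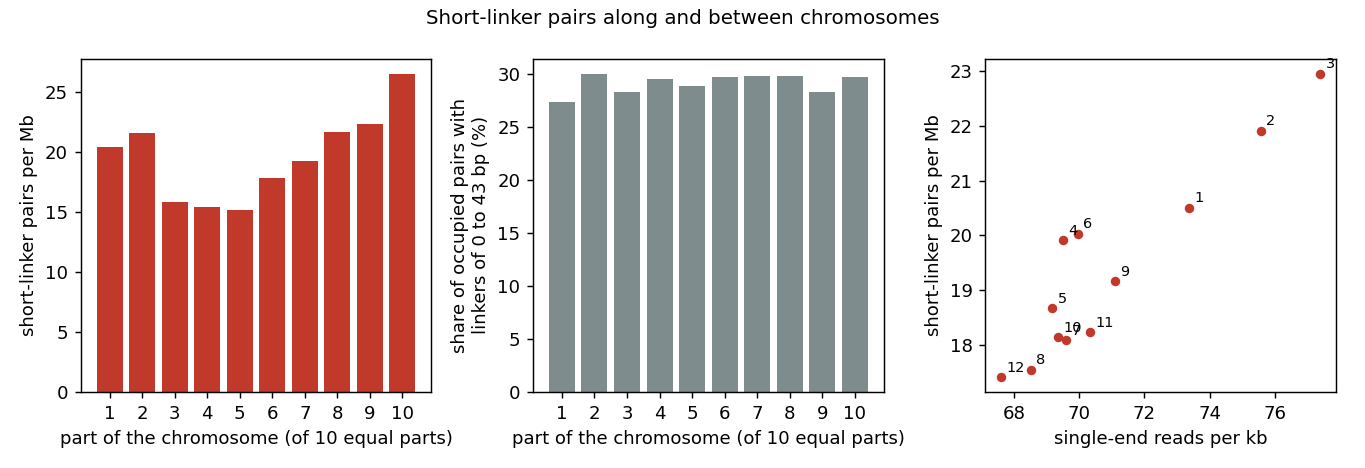
Short-linker pairs per Mb in 10 equal parts of the chromosomes (left), their share of all occupied pairs with linkers of 0 to 43 bp in the same parts (middle), and pairs per Mb against single-end reads per kb for each numbered chromosome (right). The density falls to 15.2 per Mb in part 5 and reaches 26.4 in part 10, while the share stays between 27.3% and 29.9%.

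The windows with the most short-linker pairs lay on chromosome 3, in coordinates of TIGR release 5. From 3000001 to 4000000 there were 39, or 38.2% of occupied pairs with linkers of 0 to 43 bp. From 5000001 to 6000000 there were 38 (37.6%), and from 34000001 to 35000000 there were 36 (31.9%). A window on chromosome 11, from 3000001 to 4000000, also held 36. The fewest, 4 pairs, lay on chromosome 4 from 14000001 to 15000000, where reads stood at 37.0 per kb. On chromosome 5, the windows from 9000001 to 10000000 and from 10000001 to 11000000 held 5 pairs each, at 51.0 and 42.1 reads per kb. Of the windows named here, those with many pairs were richer in reads than those with few. The occupancy rule largely sets this, since it counts reads.

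Short-linker pairs were mostly far apart. The median distance between successive pairs was 31503 bp, and 363 of 7277 distances (4.99%) were under 1000 bp. As adjacent calls, 226 pairs (3.10%) shared a nucleosome with another short-linker pair, in 108 runs of 3 nucleosomes, 2 runs of 4 and 1 run of 5. This count requires that no other call lies between. The 701 sides with an occupied call again at a linker of 0 to 13 bp, given above as 8.28%, also include sides where another call stood in between, and shared nucleosomes were not counted for the longer classes.

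The run of 5 lay on chromosome 12, with centres from 20598108 to 20598714. Its linkers were 7, 2, 2 and 7 bp, and its calls held 16, 12, 26, 28 and 9 read centres. All 9 of the last call were from forward reads. A call 57 bp beyond it overlapped it and held 12. Reads stood at 224 per kb around the run, and single-end read centres did not form 5 separate peaks at the calls, so its even spacing rests on the paired-end calls.

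**Figure D5:**
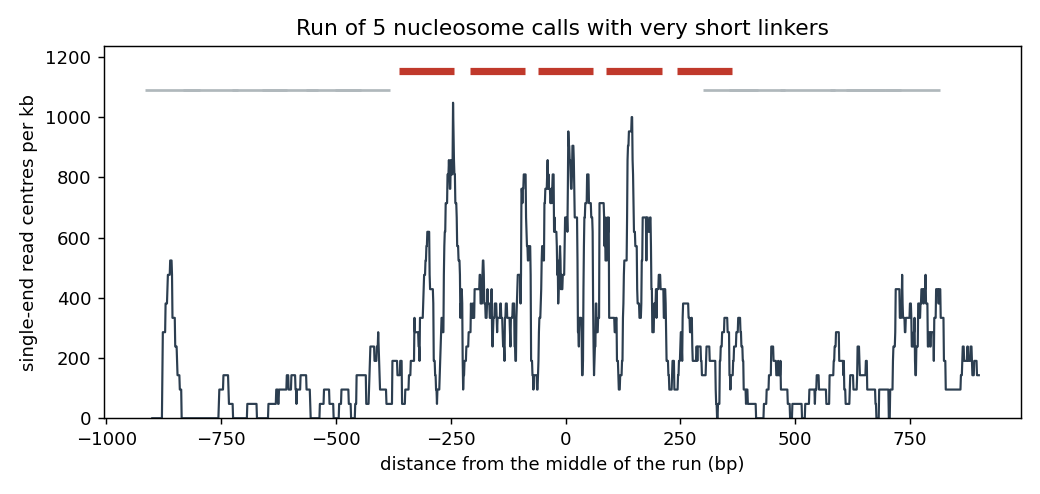
Single-end read centres per kb (smoothed over 21 bp) against the distance in bp from the middle call of the run of 5. Bars mark the calls of the run (red) and other calls (grey, merged where they overlap), and the curve forms several narrow peaks that do not match the 5 calls one to one.

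A run of 4 on chromosome 5, with centres from 20306198 to 20306668, had linkers of 8, 12 and 9 bp and 16, 12, 17 and 12 read centres. Calls overlapped it on both sides, at 104 bp with 15 and at 60 bp with 10. The other run of 4, on chromosome 7 from 18308963 to 18309437, had linkers of 9, 11 and 13 bp and 19, 8, 9 and 13 read centres. No call overlapped it, and the next calls stood 165 bp before it with 18 and 163 bp after it with 7. With repeated reads counted once its weakest call had 5.

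Among single pairs, the 5 with the most reads at the weaker call (repeated reads counted once) are described. The first, on chromosome 2 with centres 33041799 and 33041946, had a linker of 0 bp. Its calls held 31 and 41 read centres (19 and 21 counted once), from both strands, and scored 0.732 and 0.722. A call 66 bp before it held 17, and the next call after it, at 148 bp, held 2.

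The second, on chromosome 4 with centres 15619174 and 15619329, had a linker of 8 bp and 41 and 21 read centres. Calls stood 207 bp before it with 22 and 133 bp after it with 2, and no call lay within 120 bp. The third, on chromosome 11 with centres 6189471 and 6189625, had a linker of 7 bp and 23 and 40 read centres. A call 59 bp after it held 45, more than either call of the pair.

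The fourth, on chromosome 12 with centres 20877157 and 20877307, had a linker of 3 bp and 30 and 35 read centres, between overlapping calls at 67 bp with 13 and at 64 bp with 18. The fifth, on chromosome 5 with centres 2059049 and 2059209, had a linker of 13 bp, 42 and 28 read centres and the highest scores of these 5, 0.862 and 0.776. A call 50 bp after it held 15, and one 111 bp before it held 0. Overlapping calls with 13 or more read centres thus stood beside 4 of these 5 pairs. Reads around the 5 pairs stood at 157.9 to 356 per kb, above the 71.3 per kb of the library, and the part of density in these overlaps was not tested.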

How the data were processed

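The single-end file held the position and strand of each read. The authors aligned 36-bp reads to TIGR release 5 with MAQ, allowed 1 mismatch, kept unique positions and deposited both technical replicates together. The authors made the calls with nucleR from read pairs, after removing fragments over 200 bp and trimming the others to their middle 40 bp. Versions of MAQ and nucleR are not given in the sources used here. The score of each call is the deposited nucleR value, whose scale is not stated. Another file with the same calls was left out.

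Ends were counted per base with Python 3.11.15, numpy 2.4.6, pandas 2.3.3 and scipy 1.17.1. At the mean density a window of 41 bp holds 2.92 read centres, so single pairs carry few reads. PCR copies could not be told from separate molecules, so intervals cover counting error only. Maxima were taken after smoothing over 11 bp, at 120 to 260 bp. The procedure was tested on simulated arrays with even spacing outside the pair, no overlapping calls and more reads per nucleosome than most calls here. The test thus does not cover the overlapping calls of these data. The pairs, classes of linker length and rules for named regions were chosen with earlier results of these data known. Named were the 5 pairs with the most reads at the weaker call, the 3 longest runs, the 3 windows of 1 Mb with the most and the fewest pairs, and the chromosomes with the most and the fewest per Mb. Sequences and genes at the pairs were not analysed here.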

Additional observations from a re-analysis of the deposited data

How the results depend on the processing

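Of 56 alternatives over 8 results, 26 left a value within its SD over chromosomes, or a count within 1.5 times, and 30 moved it. Counting repeated reads once gave 3209 pairs (2.72% of adjacent pairs with short linkers), 93 bp to the nearest call outside, 208 bp to the nearest occupied call and a spread of pairs per Mb over chromosomes (SD as a share of the mean, 8.98% as reported) of 10.4%. An occupancy of 6 or more gave 17205 pairs (14.6%), 196 bp to the nearest occupied call and a spread of 7.80%. An occupancy of 10 or more gave 2964 pairs (2.51%), distances of 95 and 208 bp, an outside maximum at 178 bp and a spread of 9.65%. A window of 10 bp around the centre gave 864 pairs (0.731%), distances of 97 and 214 bp and a spread of 12.9%. Centres 75 bp inside the ends moved the outside maximum from 173 to 180 bp and the spread to 8.78%. Linkers of 0 to 6 bp gave 3076 pairs (5.45%), distances of 82 and 206 bp and a spread of 10.9%. Calls with a score at or above the median gave more pairs, 10805 (11.9%) in place of 7289. The nearest call was then at 163 bp in place of 90 bp, since lower calls were left out, and the spread was 10.6%. The share of ends on the linker side and the score stayed within their SD under each alternative. With repeated reads counted once at the same pairs, the level at 40 to 70 bp outside moved from 153.9% to 149%.

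Fewer pairs under stricter limits on occupancy, window or linker follow from the limits. The limit on scores gave more pairs, as it changed which calls were adjacent, so the number of pairs depends on the weaker calls. The spread between chromosomes has no error of its own, so each alternative counts as moved. The outside maximum is broad, went from 173 to 180 bp with the shift of the ends, and gives no order between classes that differ by a few bp. No paired analysis was possible because replicates 1 and 2 are a read library and a list of calls. Leaving out a replicate would have left 0 of that form.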
